A study of Homo sapiens with 4 samples.

Results

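At 827 of the 10331 chromosome regions that had an ATF3 peak in every library, the peak was lower in cystine-restricted SW480 cells than in cells kept in full medium. The 10331 regions are part of 44826 regions made by joining peaks of the 4 lists that shared at least 1 bp on chromosomes 1 to 22 and X. SW480 is an established line from a colorectal adenocarcinoma. Cells were kept for 24 h in medium restricted in cystine or in full medium, with 2 libraries per medium, and ATF3 was mapped by CUT&Tag, in which an antibody brings a transposase to chromatin to cut and tag the DNA around the bound protein. The line was maintained in a medium with fetal bovine serum and antibiotics, and the labels name no other treatment. They do not say whether the 2 libraries of a medium came from separate cultures, so a spread between them may be technical. A control without antibody was not used here. RNA was not measured, so the epithelial markers of the line were not checked.

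ATF3 is a transcription factor of the bZIP family that is made when cells are stressed, including when an amino acid runs short. It binds DNA as a dimer, alone or with factors such as JUN, at short sites of the AP-1 and CRE type, and can repress as well as activate genes. CUT&Tag also releases DNA from sequence that is open or present in many copies, and a repeat that the reference genome holds in fewer copies than the cell collects tags from all of them.

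The height of a peak is the number of tags piled up at its summit over the pileup expected from the whole genome, so a height of 20 is 20 times the background of that library. Pileups were worked out from the deposited fold enrichment and p-value of each peak. This background, which goes with sequencing depth, was 1.298 and 1.084 tags per library under cystine restriction, against 1.106 and 1.318 tags in full medium. Regions were chosen by their heights, and one was taken when its mean log2 height was lower in the cystine-restricted than in the full-medium libraries, which was true of 8.01% of the regions in all 4 lists. The differences in height between media are therefore a description and carry no test. With 2 libraries against 2, the smallest two-sided exact permutation p for any single value is 0.33. The number depends on the scale and on the libraries: 1806 regions were lower by the deposited fold enrichment, 5260 when libraries were scaled to the same median over the common regions, and 1407 without full-medium replicate 2. It was 381 when both same-numbered pairs had to be lower (replicate block). Keeping only peaks with a −log10 q of 5 or more gave 494 of 7397 common regions (6.68%). A reciprocal overlap of 50% gave 397 of 5136 (7.73%), so fewer common regions were kept as well.

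Most of the lowered regions were lower by little. Their median log2 difference was -0.15 (interquartile range -0.28 to -0.06), whereas it was 0.53 (0.29 to 0.78) over all regions in the 4 lists. Of the 827, 507 lay between -0.2 and 0, and 21, or 0.203% of all common regions, were lower by 1.5-fold or more. The median height of the lowered regions was 16.2 and 14.8 in the cystine-restricted libraries, against 18.1 and 16.7 in the full-medium ones. At the other 9504 common regions the median heights were 28.5 and 26.8 in cystine-restricted and 19.0 and 16.7 in full-medium libraries. The full-medium medians of the lowered regions were close to those of the rest, and the cystine-restricted medians were lower than those of the rest. The choice used these heights, so nothing is read from this.

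**Figure D1:**
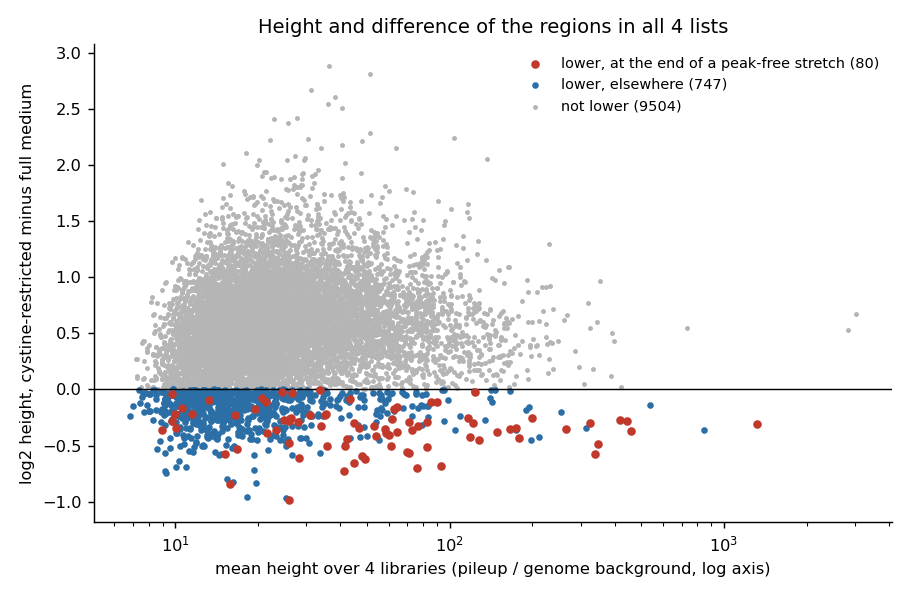
Log2 height in cystine-restricted minus full-medium libraries (y axis) against the mean height over 4 libraries (x axis, log scale) for each region in all 4 lists. Red and blue points are the 827 lower regions, 80 of them at the end of a long stretch with no peak (red) and 747 elsewhere (blue), grey points are the 9504 others. Blue points crowd at low heights near 0, and many red points lie at high heights.

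The differences ran on without a break across 0. The 3 nearest under it were at chr12:49594839-49595819, chr8:11659961-11660869 and chr22:46964202-46965173 (hg19, as are all positions), and each had a difference of -0.00019. The 3 nearest over it, all on chromosome 19, had differences of 0.00020, 0.00037 and 0.0011. Within 0.05 of 0 lay 190 lowered regions and 217 others.

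The counting error of the pileups was large beside these differences. A 95% interval for each difference, from the Poisson error of the 4 pileups, covers counting error only and not the spread between cultures. It lay wholly under 0 at 65 of the 827 lowered regions, which is 0.629% of all common regions, and held 0 at the remaining 762. It lay wholly over 0 at 5030 regions, or 48.7% of the common ones. Both cystine-restricted libraries were under both full-medium libraries at 246 of the 827, 2.38% of all common regions, and at the other lowered regions the media overlapped.

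Same-numbered libraries give 2 comparisons that share no library. Cystine-restricted replicate 1 was under full-medium replicate 1 at 1391 common regions (13.5%), and cystine-restricted replicate 2 under full-medium replicate 2 at 1064 (10.3%). Both were true at 381 regions (3.69%), all of them among the 827. Of the 1391 regions lower in the first comparison, 27.4% were lower in the second, beside 10.3% of all common regions. Of the 1064 lower in the second, 35.8% were lower in the first, beside 13.5%. The numbers do not show that libraries were made together, and no test over regions was run.

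Lowered regions occurred at all heights, and their share was highest among the weakest peaks and rose again among the tallest. Mean height over the 4 libraries includes the cystine-restricted heights by which regions were chosen, so share and height are not separate measures here. When the common regions were parted into 10 deciles of mean height over the 4 libraries, 20.4% of the lowest decile (heights 6.86 to 12.001) were lowered. The share was 10.3% in the second decile, 6.10% in the fifth and 3.39% in the eighth (30.1 to 38.2), and deciles 3 to 9 together held 417 of the 827. In the tenth decile (55.1 and above) it was 8.91%, or 92 of 1033 regions. None of the 211 lowered regions of the lowest decile had a counting interval wholly under 0, but 41 of the 92 in the tenth did. The median standard error of the difference from counting was 0.41 on the log2 scale in the lowest decile and 0.15 in the highest, so depth limits what can be said of the weak regions.

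**Figure D2:**
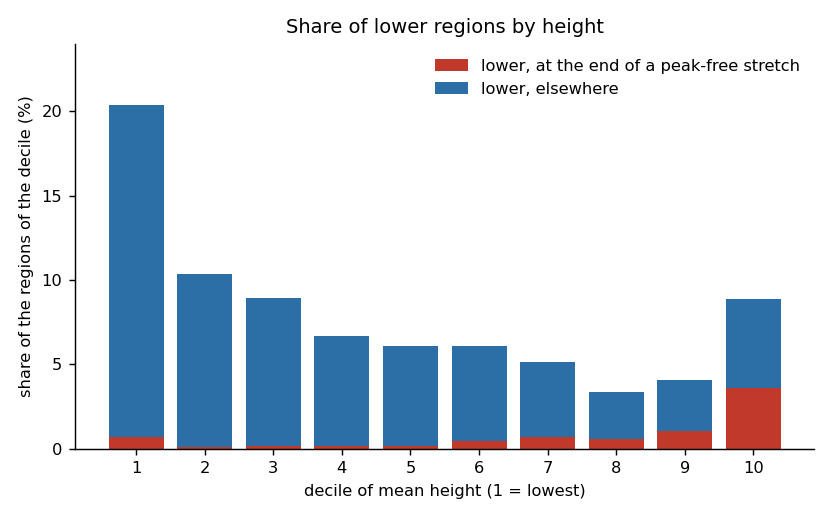
Share of common regions that were lower under cystine restriction (y axis, percent) in 10 deciles of mean height (x axis, 1 is the lowest). Red is the part at the ends of long peak-free stretches and blue the part elsewhere. The share is 20.4% in decile 1 and 3.39% in decile 8, and 8.91% in decile 10, where 37 of the 92 lower regions are at stretch ends. Mean height includes the heights by which the lower regions were chosen.

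Most common regions beside long stretches of chromosome with no peak in any list were lowered, and these included 37 of the 92 lowered regions of the tallest decile. In hg19 such stretches include the gaps left for centromeres, and repeated satellite sequence is known to flank centromeres; whether each stretch is such a gap was not analysed here. On chromosomes 1 to 22 and X, 60 stretches of at least 3 Mb had no listed peak. Within 250 kb of their ends lay 119 common regions, and 80 of these, or 67.2%, were lowered, against 747 of 10212 elsewhere, or 7.31%. By the deposited fold enrichment, which divides by the local background, 39.5% of the 119 were lower, beside 17.5% of all common regions. The 80 lay on 15 chromosomes. These distances were chosen after the positions had been seen, and position was not used to choose the lowered regions.

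Regions at the ends were lower by more than the other lowered regions. The 80 had a median difference of -0.34 (interquartile range -0.46 to -0.23), the other 747 one of -0.14 (-0.25 to -0.05). The median height of the 80 was 45.5 and 39.7 in the cystine-restricted libraries, against 56.0 and 62.2 in the full-medium ones. Over all 119 common regions at the ends, lowered or not, the median heights were 35.4 and 32.3 in cystine-restricted and 33.4 and 36.4 in full-medium libraries, which overlap, and the median difference was -0.23, beside 0.54 at the common regions elsewhere. Of the 80, 55 had both cystine-restricted libraries under both full-medium libraries, 40 had a counting interval wholly under 0 and 59 were lower in both same-numbered comparisons. Among the 747 elsewhere these numbers were 191, 25 and 322. In the tallest decile, 37 of the 40 regions at ends were lowered, as were 55 of the 993 elsewhere.

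**Figure D3:**
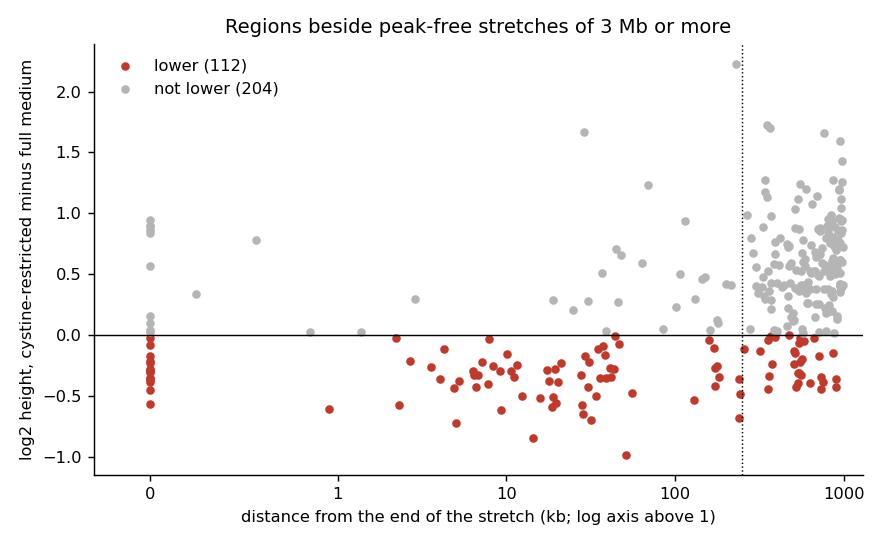
Log2 height in cystine-restricted minus full-medium libraries (y axis) against the distance of a common region from the nearest end of a peak-free stretch of 3 Mb or more (x axis, kb, log scale above 1 kb), up to 1000 kb. Red points are the 112 lower regions, grey points the 204 others, and the dotted line marks 250 kb. Within that line 80 of 119 regions are lower.

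The stretches differed from one another. Common regions lay near the ends of 35 of the 60, lowered ones near 16, and more than 50% of the regions were lowered at 12. At 19 stretches, with 27 common regions among them, none was lowered. The largest group was on chromosome 10, where all 20 common regions beside the stretch from 39136944 to 42356569 were lowered, 2 before it and 18 after it. Their median heights were 63.2 and 69.2 in cystine-restricted and 85.4 and 101 in full-medium libraries, with a median difference of -0.35. On chromosome 16, all 12 common regions beside the stretch from 35232759 to 46385898 were lowered, with a median difference of -0.29. Their median heights were 45.1 and 36.9 in cystine-restricted and 50.6 and 54.6 in full-medium libraries.

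Chromosome 2 showed the same direction on one side. Beside its stretch from 92325644 to 95695714, 12 of 13 common regions were lowered, all 12 on the lower-numbered side, and the median difference was -0.50. The median heights of the 13 were 37.8 and 36.0 in cystine-restricted and 53.3 and 59.2 in full-medium libraries. Chromosomes 11 (3 of 3), 18 (4 of 4), 19 (5 of 5), 8 (3 of 3), 6 (2 of 2) and 9 (2 of 2) each had 1 stretch at which all common regions were lowered. Beside 1 stretch each, 5 of 7 were lowered on chromosome 17 and 5 of 6 on chromosome X. No common region was lowered beside the other stretches of chromosomes 6, 8 and 18 (0 of 3 on each), 9 (0 of 2), 10 (0 of 1) and X (0 of 1). None was lowered beside any stretch of chromosomes 5 (0 of 3) and 21 (0 of 1). Chromosomes 7 (1 of 2) and 20 (2 of 3) were mixed. Chromosome 1 did not follow, with 1 of 3 lowered beside one stretch and 2 of 5 beside the longest (21.1 Mb), and one of the 5 had a difference of 2.23. On chromosome 4, 1 of 2 was lowered beside the stretch from 49659846 to 52709263, and none of 10 beside the other 6 stretches with a common region.

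The tallest lowered region lay on chromosome 1 from 121484286 to 121485509, at the end of the 21.1 Mb stretch, and had heights of 1167 and 1199 in cystine-restricted replicates 1 and 2, against 1459 and 1466 in the full-medium libraries. This was 1.24-fold lower (log2 difference -0.31, 95% counting interval -0.38 to -0.23), and the media did not overlap. The next, on chromosome 7 from 61968641 to 61969741, had heights of 714 and 780 in cystine-restricted and 931 and 983 in full-medium libraries, and was 1.28-fold lower. By the deposited fold enrichment the media overlapped here as well (14.1 and 14.6 against 14.3 and 14.1). The region lay 904 kb from the nearest stretch and so is not among the 80.

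Of the 8 tallest, the remaining 6 were on chromosomes 4 and 10. The region on chromosome 4 from 49151278 to 49151923 had heights of 545 and 485 in cystine-restricted and 586 and 544 in full-medium libraries, and the media overlapped, since cystine-restricted replicate 1 was just above full-medium replicate 2 (log2 difference -0.13, counting interval -0.25 to -0.02). The 5 on chromosome 10 lay between 42384810 and 42600185. The lowest of these relative to full medium, from 42384810 to 42385774, had heights of 284 and 271 in cystine-restricted and 386 and 441 in full-medium libraries, and was 1.49-fold lower. At the other 4 the fold was 1.21 to 1.40, and at all 5 both cystine-restricted libraries were under both full-medium libraries in height. By the deposited fold enrichment this did not hold at any of the 5.

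**Figure D4:**
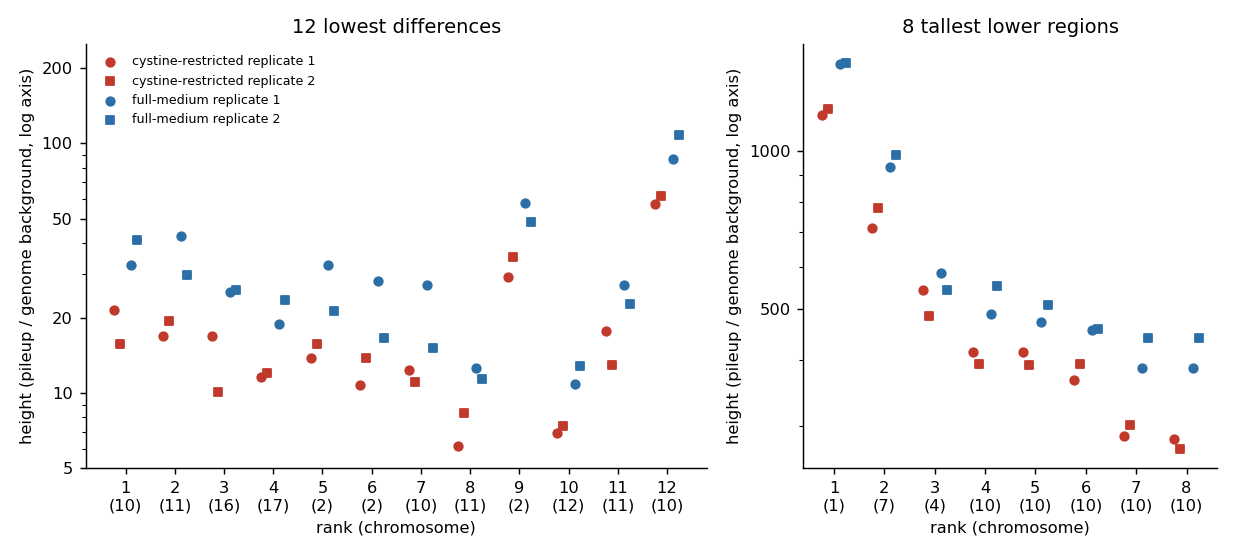
Height (pileup over genome background, log axis) in each library for the 12 lowered regions with the lowest difference (left) and the 8 tallest (right), by rank, with the chromosome in brackets. Red marks are cystine-restricted and blue marks full-medium libraries, circles replicate 1 and squares replicate 2. Red marks lie under both blue marks at each region except the third tallest, on chromosome 4.

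The largest differences were at regions of modest height. The lowest difference was on chromosome 10 from 42408101 to 42408443, 51.5 kb from the end of a stretch, with heights of 21.6 and 15.7 in cystine-restricted replicates 1 and 2, against 32.5 and 41.0 in the full-medium libraries. This was 1.98-fold lower, with a log2 difference of -0.99 (counting interval -1.52 to -0.46). The next was on chromosome 11 from 70436112 to 70437019, far from any such stretch, with heights of 16.95 and 19.4 in cystine-restricted and 42.5 and 29.6 in full-medium libraries, a 1.956-fold difference. A region on chromosome 16 from 28327447 to 28327931 had heights of 16.95 and 10.1 in cystine-restricted and 25.3 and 25.8 in full-medium libraries, a 1.95-fold difference. These 3 regions rested on 11 to 54 tags per library.

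Of the 12 lowest regions, 4 were at the ends of stretches, on chromosomes 10, 17, 2 and again 10. The others lay on chromosomes 11, 16, 2, 10 and 12. The fourth, on chromosome 17 from 22246978 to 22247306, had heights of 11.6 and 11.99 in cystine-restricted and 19.0 and 23.5 in full-medium libraries. The twelfth, on chromosome 10 from 42388198 to 42388573, had 57.0 and 61.8 in cystine-restricted and 86.8 and 108 in full-medium libraries. The counting interval lay wholly under 0 at 10 of the 12. The exceptions were chr11:1213152-1213639 and chr12:5726043-5726737, where pileups were 8 to 17 tags.

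Some tall regions away from the stretch ends were lowered as well. In the tallest decile, 12 of the 55 lowered regions elsewhere had a counting interval wholly under 0, and they are named here after their values had been seen. Of these, 6 lay on chromosomes 4, 7 and 8, between 508 and 906 kb from a stretch. A pair was on chromosome 8. The region from 43092764 to 43093227 had heights of 280 and 275 in cystine-restricted and 414 and 300 in full-medium libraries. Its neighbour from 43094668 to 43095331 had 172 and 167 in cystine-restricted and 263 and 203 in full-medium libraries. Both cystine-restricted libraries were under both full-medium ones at each of the pair.

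The other 6 lay farther from any such stretch. The region on chromosome 12 from 57914237 to 57916564, the widest of them at 2328 bp, had heights of 97.1 and 87.6 in cystine-restricted replicates 1 and 2, against 118 and 118 in the full-medium libraries. This was 1.28-fold lower (log2 difference -0.36, counting interval -0.61 to -0.10). The region on chromosome 10 from 98829346 to 98830388 had heights of 151 and 156 in cystine-restricted and 221 and 177 in full-medium libraries, a 1.29-fold difference. On chromosome 20 from 48808302 to 48809078 the heights were 133 and 113 in cystine-restricted and 159 and 137 in full-medium libraries, a 1.21-fold difference.

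A broad region on chromosome 7 from 99005468 to 99007175 had heights of 251 and 224 in cystine-restricted and 279 and 268 in full-medium libraries, a 1.15-fold difference. On chromosome 1 from 204475495 to 204477279 the heights were 92.5 and 81.2 in cystine-restricted and 119 and 92.6 in full-medium libraries. The last, on chromosome 2 from 89853048 to 89853435, had 49.3 and 45.2 in cystine-restricted and 59.6 and 69.8 in full-medium libraries. In each of these regions the media did not overlap, and on chromosome 1 they came within 0.1 of a height unit. Genes at these places were not analysed here.

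Lowered regions had a lowered neighbour more often than other common regions did, though most did not have one. Of the 535 lowered regions with another common region within 50 kb, the nearest one was also lowered at 140, or 26.2%, against 398 of 5900, or 6.75%, for common regions that were not lowered. Away from stretch ends the shares were 15.5% (72 of 464) and 6.71% (395 of 5891). Neighbouring regions share chromatin and sequence and are not independent, and no test was run.

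Common regions no more than 50 kb apart formed 16 runs with at least 3 lowered regions that made up 50% or more of the run. These runs held 94 lowered regions among 103, and 10 of the runs lay within 250 kb of the end of a stretch. The run on chromosome 4 from 49093900 to 49156693, 503 kb from a stretch, had 12 lowered among 14. The run on chromosome 7 from 102146250 to 102267746 was of another kind, since all 7 of its regions were lowered but weakly so. Its median heights were 12.3 and 11.1 in cystine-restricted and 14.5 and 11.4 in full-medium libraries, the media overlapped at each region, and no counting interval lay wholly under 0. On chromosome 2 from 178029382 to 178130332, 4 of 7 regions were lowered, with median heights over the run of 47.0 and 36.0 in cystine-restricted and 38.9 and 41.7 in full-medium libraries.

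All 23 chromosomes had lowered regions, at different shares. On chromosome 4, 42 of 264 common regions were lowered, or 15.9%, and 41 of the 42 lay more than 250 kb from stretch ends. Of these 41, 12 were in the run from 49093900 to 49156693, 503 kb from a stretch. The next shares were 12.8% on chromosome X (30 of 235), 12.1% on chromosome 16 (43 of 354) and 11.3% on chromosome 18 (17 of 151). Without the stretch ends these were 10.96%, 9.06% and 9.03%. Chromosome 10 had 10.7% lowered, and 6.34% without the ends, where 20 of its 46 lowered regions lay. The lowest share was 2.31% on chromosome 21 (4 of 173), followed by 4.42% on chromosome 15. The common regions of chromosome 4 had a median height of 18.2, beside 21.3 over all chromosomes. Chromosome 15, with a lower median height of 17.8, had the second lowest share. The part of height in the share of a chromosome was not tested.

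**Figure D5:**
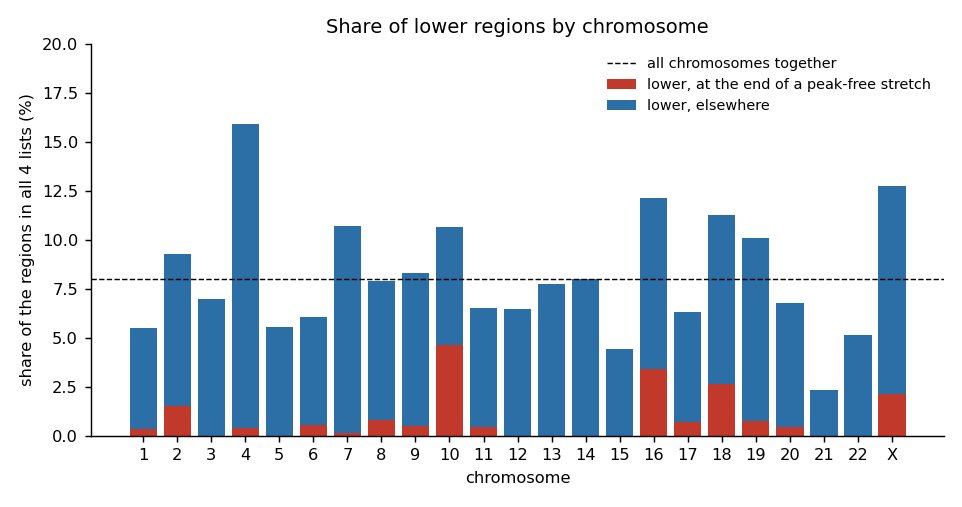
Share of common regions that were lower under cystine restriction (y axis, percent) on each chromosome (x axis). Red is the part at the ends of long peak-free stretches, blue the part elsewhere, and the dashed line is the 8.01% of all chromosomes together. Chromosome 4 is highest at 15.9% and chromosome 21 lowest at 2.31%.

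Shape and surroundings also differed between the lowered and the other common regions. Lowered peaks had a median width of 477 bp, averaged over the 4 libraries, against 620.5 bp for the others and 653 bp for the 1181 regions whose height was at least doubled under cystine restriction (a log2 difference of 1 or more). Mean height ran in the same order, with medians of 16.3, 21.7 and 24.7. Both averages include the cystine-restricted libraries whose heights set the choice, so width is not separate from it. The 80 at stretch ends were narrowest, at 433 bp, though they were tall. The summits of the 4 libraries lay within a median of 60 bp of each other at these 80, against 191 bp at the 747 lowered regions elsewhere and 121 bp at the regions that were not lowered. A region was made of more than 4 peaks in 22.97% of the lowered and 26.2% of the other common regions.

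The local background, which the peak caller reads from the 10 kb or so around a peak and which the choice of regions did not use, was above the genome background in all 4 libraries at 86.3% of the lowered and 92.5% of the other common regions. At the 1806 regions lower by the deposited fold enrichment that share was 92.7%, beside 92.0% of all common regions. The geometric mean of the local over the genome background had a median of 8.67 at the 80 regions at stretch ends, 1.92 at the lowered regions elsewhere and 2.55 at those not lowered. At the lowered regions the median by library was 2.12 and 1.91 in cystine-restricted replicates 1 and 2, against 2.14 and 1.99 in full-medium replicates 1 and 2. The 2 media overlapped. At the regions not lowered the mean of the library medians was 2.96 under cystine restriction and 2.21 in full medium. The local background includes tags of the peak itself, so the 2 measures are not separate, and its part in the differences was not tested.

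Libraries of one medium differed at the lowered regions about as much as elsewhere. The difference between the 2 cystine-restricted libraries had a standard deviation over regions of 0.39 on the log2 scale at the lowered and 0.33 at the other common regions. Between the full-medium libraries it was 0.37 and 0.36. At the 80 regions at stretch ends full-medium replicate 2 was above replicate 1 by a median of 0.14, whereas over all common regions it was below by 0.16. At the same 80, cystine-restricted replicate 1 was above replicate 2 by a median of 0.075. The difference between media there had medians of -0.48 within same-numbered pair 2 and -0.26 within pair 1, which differ in both libraries.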

How the data were processed

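ATF3 CUT&Tag peaks of 4 SW480 libraries, grouped by medium from the sample titles, were analysed. The submitters' processing notes name MACS2 2.2.7.1, BWA 0.7.17, fastp 0.19.7, bcl2fastq 2.17 and the build hg19. Options of the peak caller were not given. The deposited lists, 1 per library, give a fold enrichment (a ratio) and −log10 p and q values for each peak, with q filtered by the authors at a −log10 of about 1.30. A whole pileup and background that solve both were found for 100% of peaks within 0.1%, and for 100% of 20000 simulated pileups. All of 200 regions planted as lower among 10331 were called lower. They were planted with a larger difference than that of any lowered region, the lowest being -0.99. Recovery of the smaller differences seen here is therefore not covered, and calls at regions that were not planted are not given. Read counts are not in these values; depth was read from the genome background. Lowest listed pileups were 6 or 7 tags. Height is pileup over genome background, of the highest peak of a library in a region.

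The regions and measures were chosen with earlier results of these data known. Named regions were the 12 lowest differences with media apart, the 8 tallest, and 3 on each side of 0. Comparisons are descriptions over regions, with no test. Same-numbered libraries deviated with a correlation of 0.01, which with 2 numbers pairs nothing. Start sites, gene lists, motifs and sequences were planned but not run, because no genome or annotation of hg19 was used here. Peaks on chromosome Y and unplaced contigs were kept apart. Computations ran in Python 3.11.15 with pandas 2.3.3, scipy 1.17.1, numpy 2.4.6 and matplotlib 3.10.9.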

Additional observations from a re-analysis of the deposited data

Results flagged for a closer look

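Contigs without a fixed place or of alternate sequence, with chromosome Y, are outside the comparisons above and were looked at separately. Their sequence was not analysed here. Of their 178 regions in all 4 lists, 29 were lower under cystine restriction, or 16.3%, beside 8.01% on chromosomes 1 to 22 and X. Both cystine-restricted libraries were under both full-medium libraries at 18 of the 178, beside 2.38% of the common regions on chromosomes 1 to 22 and X. The counting interval lay wholly under 0 at 10 of the 178, beside 0.629%. Counting error is smaller at taller regions, and the 178 were not matched for height with the other regions. In the tallest decile of chromosomes 1 to 22 and X, 8.91% of 1033 regions were lower. There the media were apart at 57 and the counting interval lay wholly under 0 at 41. Over the 178 the median log2 difference was 0.58, beside 0.53 on chromosomes 1 to 22 and X, and the lowest was -1.34. These differences in share were not tested.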

How the results depend on the processing

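The number of lowered regions depends on the scale. With library factors by median of ratios, which move the median of all regions by 0.54 on the log2 scale, 5260 regions were lower, 2617 with the media apart. This scaling centres the common regions, so about 50.9% are lower and all 827 stay lower by construction. By the deposited fold enrichment, which divides by the local background, 1806 were lower and 447 apart, and 680 of the 827 were among them. A −log10 q of at least 5 left 494 lowered regions among 7397 common ones (6.68%). A reciprocal overlap of 50% left 397 among 5136 (7.73%), with 146 apart. The replicate block, lower in both same-numbered pairs, left 381 with a median difference of -0.27. Leaving out 1 library gave 774 to 1407 (the highest without full-medium replicate 2). Of the 827, 689 stayed lower without cystine-restricted replicate 1, 588 without cystine-restricted replicate 2, 568 without full-medium replicate 1 and 711 without full-medium replicate 2. The lowered regions then had medians of -0.18 to -0.16 and 86.5% to 88.5% with raised local background. That share was 91.5%, 91.4%, 92.7%, 91.2% and 89.0% under the q cutoff, reciprocal overlap, fold, median of ratios and block.

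The share lowered at stretch ends was 75.3% with reciprocal overlap (7.73% of all common regions), 39.5% by fold (17.5%), 88.2% by median of ratios (50.9%) and 49.6% with the block (3.69%). It was 63.9% to 68.1% with 1 library left out, 52.1% for stretches of 2 Mb and 35.4% within 1000 kb. The settings for stretches were added after seeing the data. The cause of these shifts was not tested, apart from fewer regions being kept by the stricter settings. Subtracting the local background gave 879 lower regions, 245 of them with the media apart, beside 827 and 246. Leaving out the tallest 1% gave 805 and 227, and leaving out the stretch ends 747 and 191. Shares of regions near start sites and with motifs were not run. Depth limits the weak regions most.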
